A study of Mus musculus with 15 samples.

Results

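The acyl-CoA thioesterases are enzymes that split a fatty acyl-CoA into the free fatty acid and coenzyme A. The genes described here are the 10 members of a fixed list of mouse Acot symbols (Acot1, Acot2, Acot3, Acot4, Acot7, Acot8, Acot9, Acot11, Acot12 and Acot13), matched by Ensembl identifier in a table of 43352 genes. All 10 passed the filter on low counts, which left 19645 genes for testing. Acot12 passed only through its tPVAT counts, since no aPVAT library held more than 8 reads of it. The rule that picked the members used no measured value, but the list was chosen with earlier results of these data known. RNA came from perivascular adipose tissue (PVAT), the fat around the aorta, taken along the thoracic aorta (tPVAT, a brown-like fat) and the abdominal aorta (aPVAT, a fat of beige and white character) of mice aged 11 weeks. All mice were Prdm16flox, meaning that they carried Prdm16 alleles flanked by loxP sites. Controls had no Cre label, and the conditional knockouts (cKO, labelled Prdm16flox, AdipoQCre+) also carried a Cre recombinase driven by regulatory sequence of Adipoq, the adiponectin gene of adipocytes. The deletion is therefore aimed at adipocytes, and the other cells of the tissue keep the floxed alleles. The groups were tPVAT control (n = 4), tPVAT cKO (n = 4), aPVAT control (n = 4) and aPVAT cKO (n = 3, numbered 1, 3 and 4). Separate mice are not stated for the samples of a group, so each p-value refers to the spread among these samples, which may be technical.

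Thioesterases act against the acyl-CoA synthetases: the synthetases activate a fatty acid for oxidation or for lipid synthesis, and the thioesterases return it to the free acid and release coenzyme A. The mammalian enzymes fall into type I, which share an alpha/beta-hydrolase fold (Acot1 to Acot6), and type II, which share the hotdog fold (Acot7 to Acot13). They are spread over the cell. Acot1 is cytosolic, Acot2 sits in the mitochondrial matrix, and Acot3, Acot4 and Acot8 are peroxisomal. Of the other type II enzymes, Acot7 is a mainly cytosolic enzyme abundant in brain, Acot9 is mitochondrial, Acot12 is a cytosolic enzyme that hydrolyses acetyl-CoA, and Acot13 (also named Them2) associates with mitochondria. Acot11 (also named Them1 or BFIT, for brown-fat-inducible thioesterase) is known from brown adipocytes, where it limits fatty acid oxidation.

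Reads per library ranged from 37.8 to 68.7 M, with the fewest in aPVAT cKO 4. Prdm16 itself, counted over the whole gene, stood at 47.3 CPM (counts per M reads, after TMM scaling of library sizes) in tPVAT controls and 22.4 CPM in tPVAT cKO, and at 23.7 and 16.1 CPM in aPVAT. It was lower in cKO in both depots (log2 fold change −1.08, adjusted p = 2.22e-06 in tPVAT; −0.57, adjusted p = 0.00992 in aPVAT). Genes of the mitochondrial genome took 34.6% of reads in tPVAT controls, 29.9% in tPVAT cKO, 14.4% in aPVAT controls and 13.5% in aPVAT cKO. In tPVAT the libraries of the genotypes did not overlap (33.4% to 36.4% in controls and 26.5% to 31.6% in cKO). Gm42418, which overlaps an rRNA repeat, took 2.10% of reads in aPVAT cKO 4, 0.898% in aPVAT control 2 and 0.0641% to 0.198% elsewhere. Within both tPVAT groups, Acot1 to Acot6 and Acot13 were each highest in the same library, number 3 among controls and number 4 among cKO. Results on these genes are therefore also given without those libraries where that changes a call.

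The type I genes lie side by side on the plus strand of chromosome 12 (GENCODE M21 on GRCm38). From left to right they are Acot2 (83987861 to 83993873), Acot1 (84009490 to 84018371), Acot4 (84038379 to 84048601), Acot3 (84052144 to 84060402), Acot5 (84069325 to 84076020) and Acot6 (84100654 to 84111349). Acot5 and Acot6 are not among the 10 members, and they are shown as the closest relatives. The annotated coding sequences of Acot1 and Acot2 matched at 1178 of 1236 aligned bases (95.3%), against 74.6% to 85.8% for every other pair of the 6 genes. The window of 60 coding bases where Acot1 and Acot2 differed most is shown to illustrate how close these genes are. Capitals mark the 13 bases that differ between them.
Acot1, chr12:84016942-84017001 (+): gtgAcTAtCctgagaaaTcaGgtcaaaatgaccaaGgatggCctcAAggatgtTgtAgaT
Acot2, chr12:83992664-83992723 (+): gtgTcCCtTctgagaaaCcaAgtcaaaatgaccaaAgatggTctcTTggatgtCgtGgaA
Elsewhere the coding sequences of both genes shared a run of 273 identical bases. Acot2 opens with 123 coding bases that have no counterpart in Acot1; matrix proteins such as Acot2 carry a mitochondrial targeting sequence at this end. The first 60 of these bases are shown because they set the Acot2 transcript apart from that of Acot1.
Acot2, chr12:83987902-83987961 (+): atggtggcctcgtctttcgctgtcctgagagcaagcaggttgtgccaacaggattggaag

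These similarities bear on the counts, since the sources used here do not say how reads matching more than 1 gene were treated. Of all stretches of 50 exonic bases of Acot2, 24.5% also occurred in Acot1, and of those of Acot1, 13.6% also occurred in Acot2. Shared stretches with any gene made up 21.3% for Acot3, 13.4% for Acot4 and 22.1% for Acot5, partly with each other and partly with overlapping genes. These were Gm49366 on the same strand (11.0% of the stretches of Acot3) and 4732463B04Rik on the opposite strand (7.6% for Acot3 and 10.4% for Acot4). Values of single type I genes are therefore uncertain, and the sum of Acot1 to Acot6 is given too. The sum does not depend on how reads were split among these 6, but can still exchange reads with the overlapping genes. It would also be affected if reads matching several of the 6 were dropped, or were counted for each gene. Acot9 (X, 155262443 to 155297654) shared 15.2% of its stretches with Acot10, a near copy on chromosome 15 with 97.2% identical coding bases. Acot11 (chromosome 4, 106744555 to 106804998, minus strand) shared 17.3% with Fam151a on the opposite strand, and Fam151a did not exceed 0.184 CPM in any library. Acot8 (chromosome 2, 164792765 to 164804882, minus strand) shared 9.8% with Snx21 on the opposite strand, which stood at 18.2 to 26.1 CPM. Acot12 (chromosome 13, 91741512 to 91786148) shared 3.1% with 4833422C13Rik on the opposite strand, which stood at 0.378 to 0.846 CPM. Acot7 (chromosome 4, 152178134 to 152271855) and Acot13 (chromosome 13, 24817948 to 24831540, minus strand) shared none.

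Levels were compared between genes per kb of annotated exons. In tPVAT controls Acot11 was the most abundant member, at 120 ± 8.69 CPM per kb (SD, n = 4), followed by Acot13 at 103 ± 3.25, Acot2 at 29.3 ± 1.55, Acot9 at 14.5 ± 1.16 and Acot7 at 11.5 ± 0.817. The libraries of these neighbours did not overlap. Acot1 (6.53 ± 1.87) and Acot8 (5.27 ± 0.184) overlapped each other, as did Acot4 (0.848 ± 0.363) and Acot12 (0.535 ± 0.0623), and Acot3 was lowest at 0.0901 ± 0.0586. In tPVAT cKO Acot13 (85.8 ± 5.86) and Acot11 (83.9 ± 8.60) led the order together, with overlapping libraries. The order in aPVAT controls was a different one. Acot13 (39.2 ± 2.69 CPM per kb) stood first, Acot7 (17.3 ± 2.25) second, and Acot11 (10.2 ± 3.24) overlapped Acot9 (9.92 ± 0.764) and Acot2 (8.17 ± 1.26). In aPVAT cKO (n = 3) Acot11 (2.64 ± 0.192) had a lower mean than Acot9 (8.98 ± 0.288), Acot2 (5.42 ± 0.803) and Acot8 (3.32 ± 0.593), with the last of which it overlapped. Of the summed level per kb of the 10 members, Acot11 took 38.6% to 44.0% in tPVAT controls, 36.0% to 39.5% in tPVAT cKO, 9.12% to 15.2% in aPVAT controls and 3.10% to 4.02% in aPVAT cKO.

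**Figure D1:**
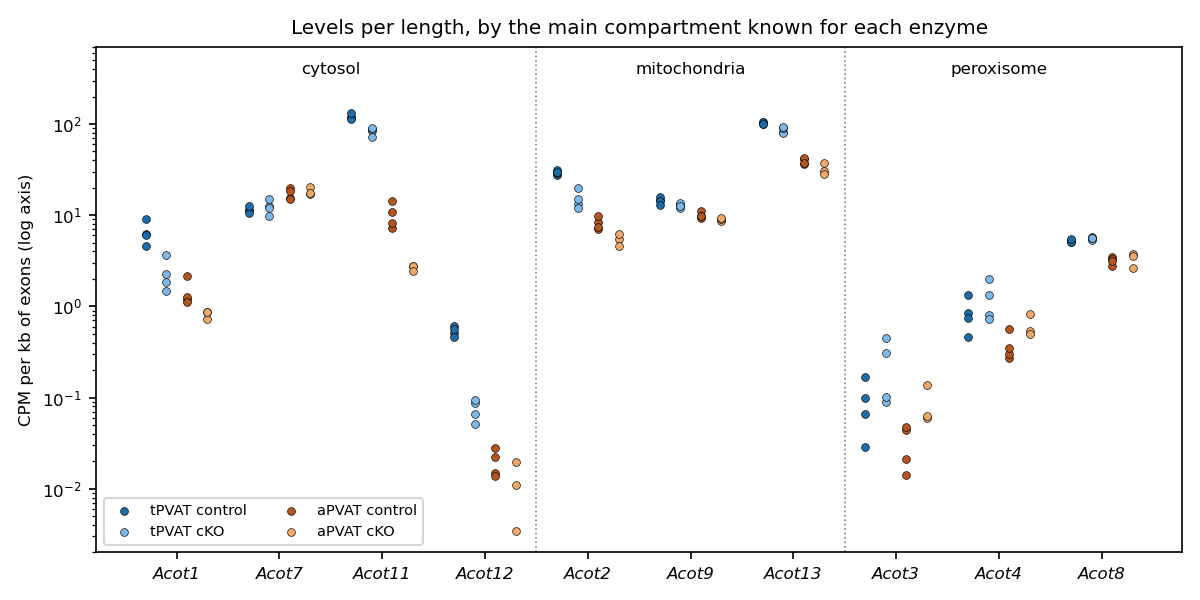
Level of each member in every library, in CPM per kb of annotated exons on a log axis, with the genes grouped by the main compartment known for each enzyme. Each point is 1 library, colored by group. Acot11 has the highest mean in tPVAT controls (120 CPM per kb) and a mean of 2.64 in aPVAT cKO, while Acot7 had higher means in aPVAT than in tPVAT.

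The tPVAT comparison asked what loss of Prdm16 in adipocytes does in the brown-like fat. Of the 10 members, 5 were lower in cKO (Acot1, Acot2, Acot11, Acot12 and Acot13), none was higher, and 5 did not pass the test; among all genes tested, 12.0% passed, 6.61% as lower. For each of those 5, every control library lay above every cKO library, which the test on the same libraries made likely. The groups of the other 5 overlapped, so 5 of the 10 members separated the groups. Among all genes, 23.2% did so in 1 direction or the other. The members' median log2 fold change was −0.23 (−0.18 without Acot12), against −0.01 for all genes. The falls spanned cytosolic and mitochondrial enzymes, and no peroxisomal member passed.

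Acot1 stood at 18.2, 24.6, 35.7 and 23.8 CPM in tPVAT control libraries 1 to 4, and at 7.26, 5.74, 8.95 and 14.5 CPM in tPVAT cKO libraries 1 to 4. Every control library lay above every cKO library, and the closest pair was control 1 and cKO 4. The mean fell from 25.6 ± 7.34 CPM in controls to 9.10 ± 3.80 CPM (−1.49 as log2 fold change, SE 0.269, adjusted p = 0.00175). Acot2, its mitochondrial relative, stood at 60.5, 63.5, 68.6 and 65.2 CPM in controls and at 29.0, 26.4, 32.9 and 43.6 CPM in cKO. The groups were far apart, with cKO 4 again the highest of its group. Acot2 fell from 64.4 ± 3.40 to 33.0 ± 7.59 CPM (−0.97, SE 0.141, adjusted p = 2.77e-04). The samples are bulk tissue, so fewer cells of a type and less RNA per cell cannot be told apart in this or the following results. The summed level of 8 general adipocyte markers was 14928 to 16677 CPM in tPVAT controls and 18837 to 20895 CPM in tPVAT cKO, with 3 of the 8 called higher and none at 0.

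Acot11 stood at 729, 702, 680 and 801 CPM in tPVAT controls and at 507, 435, 536 and 553 CPM in tPVAT cKO. The libraries did not overlap. Acot11 fell from 728 ± 52.6 to 508 ± 52.1 CPM (−0.52, SE 0.159, adjusted p = 0.0442), a call close to the threshold. It was lost when library totals replaced TMM (−0.45, adjusted p = 0.0696), without tPVAT control 3 and tPVAT cKO 4 together (−0.60, adjusted p = 0.0737), and without any 1 of the 8 tPVAT libraries or of aPVAT control 3, aPVAT cKO 1 and aPVAT cKO 3 (adjusted p 0.0536 to 0.117). The summed level of 5 thermogenic markers (Ucp1, Cidea, Cox8b, Elovl3, Dio2), the cell state in which Acot11 is known to be high, was 8281 to 8993 CPM in tPVAT controls and 5285 to 6431 CPM in tPVAT cKO, with 1 of 5 called lower and none at 0. Most of the sum was Ucp1, with means of 6257 and 4059 CPM, while Elovl3 had means of 180 and 194 CPM, Cidea of 1513 and 1329, Cox8b of 535 and 311, and Dio2 of 157 and 134. The part of these cells in the Acot11 difference was not tested.

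Acot12 had the largest fold difference of the members in tPVAT, at a low level. It gathered 85, 106, 66 and 81 reads in control libraries 1 to 4 and 16, 10, 11 and 16 reads in the cKO libraries. All controls were several times above all cKO libraries. Its level fell from 1.76 ± 0.205 to 0.245 ± 0.0640 CPM (−2.84, SE 0.259, adjusted p = 2.41e-06). Acot13 stood at 75.0, 78.8, 79.2 and 74.6 CPM in controls and at 60.4, 59.8, 67.0 and 68.2 CPM in cKO. The groups were close but apart. Acot13 fell from 76.9 ± 2.42 to 63.8 ± 4.36 CPM (−0.27, SE 0.0805, adjusted p = 0.0397), and the call was lost without any 1 of tPVAT control 1 to 4 and tPVAT cKO 1 to 3 (adjusted p 0.0553 to 0.113). It was also lost without the count filter (adjusted p = 0.0524) and with library totals only (−0.20, adjusted p = 0.0808). The same held without tPVAT control 3 and tPVAT cKO 4 together (−0.29, adjusted p = 0.0765). The calls of Acot1, Acot2 and Acot12 held in all 24 alternatives run (adjusted p up to 0.00882, 0.00189 and 5.63e-05).

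The peroxisomal members did not pass the test in tPVAT. Acot4, which hydrolyses succinyl-CoA and other dicarboxylic acyl-CoAs, stood at 3.07, 5.70, 8.89 and 4.998 CPM in controls and at 5.31, 4.91, 8.79 and 13.2 CPM in cKO (0.51, adjusted p = 0.379). The groups overlapped widely. Acot3, a peroxisomal long-chain acyl-CoA thioesterase, gathered 5, 18, 25 and 10 reads in controls and 17, 21, 53 and 80 in cKO (1.38, adjusted p = 0.128). Acot8, a broad peroxisomal enzyme of the hotdog type, stood at 10.2 to 10.9 CPM in controls against 10.6 to 11.5 CPM in cKO (0.07, adjusted p = 0.688). Of the remaining members, Acot7 had means of 24.4 and 26.2 CPM (0.10, adjusted p = 0.632) and Acot9 of 33.0 and 29.1 CPM (−0.18, adjusted p = 0.111). Beside the 10 members, the peroxisomal relative Acot5 was called higher in tPVAT cKO. It gathered 19, 34, 34 and 23 reads in controls and 63, 38, 87 and 130 in cKO, a rise from 0.580 ± 0.171 to 1.496 ± 0.802 CPM with overlapping libraries (1.36, SE 0.389, adjusted p = 0.0318). Leaving out tPVAT control 1, 2 or 4 or tPVAT cKO 3 or 4 ended the call (adjusted p 0.0646 to 0.118). So did leaving out tPVAT control 3 and tPVAT cKO 4 together (1.17, adjusted p = 0.115). Acot6 had means of 5.54 and 6.59 CPM (0.25, adjusted p = 0.310).

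**Figure D2:**
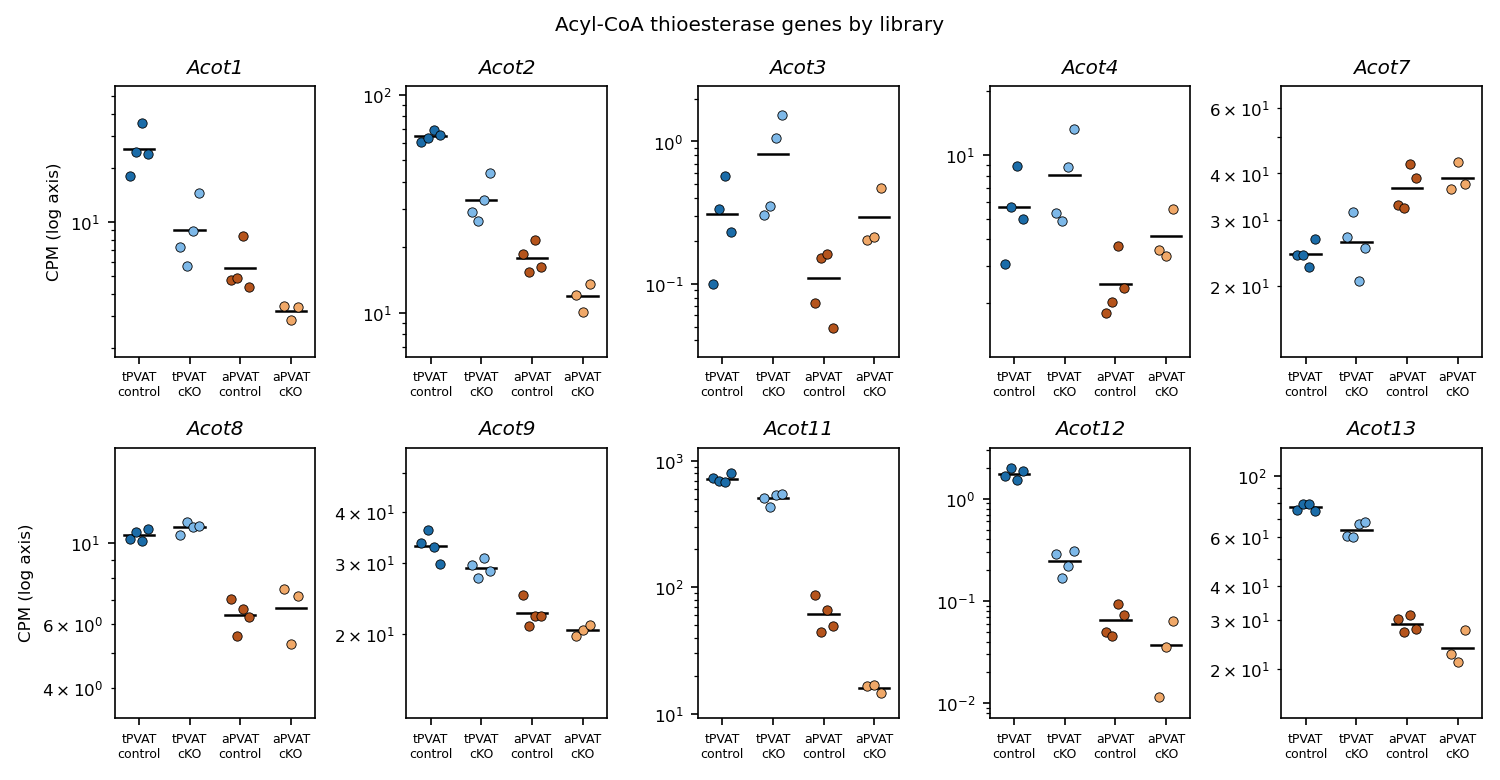
CPM of each of the 10 members in every library on log axes, with 1 point per library and a bar at the mean of the group. Acot1, Acot2, Acot11, Acot12 and Acot13 of tPVAT controls lie above all tPVAT cKO libraries, and Acot11 of aPVAT controls (43.9 to 87.7 CPM) lies above all aPVAT cKO libraries (14.7 to 16.8 CPM).

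The same question was put to aPVAT. Here Acot11 was the 1 member that passed, as lower in cKO; among all genes tested, 1.53% passed, 0.789% as lower. The other 9 members did not pass, and the median log2 fold change of the 10 was −0.22, against −0.01 for all genes. Acot11 stood at 87.7, 43.9, 66.0 and 49.7 CPM in control libraries 1 to 4 and at 16.6, 16.8 and 14.7 CPM in cKO libraries 1, 3 and 4. The controls spread over a wide range, the cKO libraries were close together, and the lowest control was well above the highest cKO library. The mean fell from 61.9 ± 19.6 to 16.0 ± 1.16 CPM (−1.95, SE 0.185, adjusted p = 2.62e-05). The summed thermogenic markers were 654 to 1114 CPM in aPVAT controls and 115 to 175 CPM in aPVAT cKO, with 3 of 5 called lower, and the 8 general adipocyte markers were 15537 to 17699 and 15972 to 19622 CPM, with none called. Their part in the Acot11 difference was not tested.

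The type I members had differences of the same sign in aPVAT as in tPVAT, and none passed. Acot1 stood at 4.75, 4.92, 8.38 and 4.34 CPM in aPVAT controls and at 3.41, 2.86 and 3.36 CPM in cKO (−0.81, SE 0.306, adjusted p = 0.271). Acot2 stood at 18.6, 15.4, 21.5 and 16.2 CPM in controls and at 12.1, 10.1 and 13.6 CPM in cKO (−0.60, SE 0.157, adjusted p = 0.0800). For both genes every control library lay above every cKO library. Acot3 separated the groups in the other direction, with 4 to 14 reads in controls and 18 to 22 in cKO. A separation in 1 direction or the other was seen in 9.56% of all genes tested in aPVAT. Acot2 was called lower with DESeq2 (−0.60, adjusted p = 0.0135), without the count filter (adjusted p = 0.0457), with library totals only (adjusted p = 0.0295), and without aPVAT control 2 (−0.66, adjusted p = 0.0495) or tPVAT cKO 4 (adjusted p = 0.0241). Without tPVAT control 3 and tPVAT cKO 4 together it was called lower too (−0.58, adjusted p = 0.0371). Acot4 had means of 2.47 and 4.16 CPM (0.73, adjusted p = 0.446), Acot3 of 0.109 and 0.296 CPM (1.36, adjusted p = 0.429), Acot5 of 0.202 and 0.351 CPM (0.80, adjusted p = 0.522) and Acot6 of 3.59 and 4.202 CPM (0.23).

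Of the type II members in aPVAT, Acot13 had means of 29.1 ± 2.005 CPM in controls and 23.8 ± 3.44 CPM in cKO (−0.29, SE 0.0883, adjusted p = 0.141). Without aPVAT cKO 4, the library with the most Gm42418, it was called lower (−0.41, adjusted p = 0.0223). Acot12 gathered 4, 3, 8 and 6 reads in controls and 1, 3 and 3 in cKO, and did not pass (−0.98, SE 0.489, adjusted p = 0.457). What size of difference could be detected from so few reads was not computed. Acot7 (36.6 and 38.9 CPM, 0.09), Acot8 (6.35 and 6.63 CPM, 0.06) and Acot9 (22.5 and 20.4 CPM, −0.14, adjusted p = 0.464) had close means in both genotypes.

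**Figure D3:**
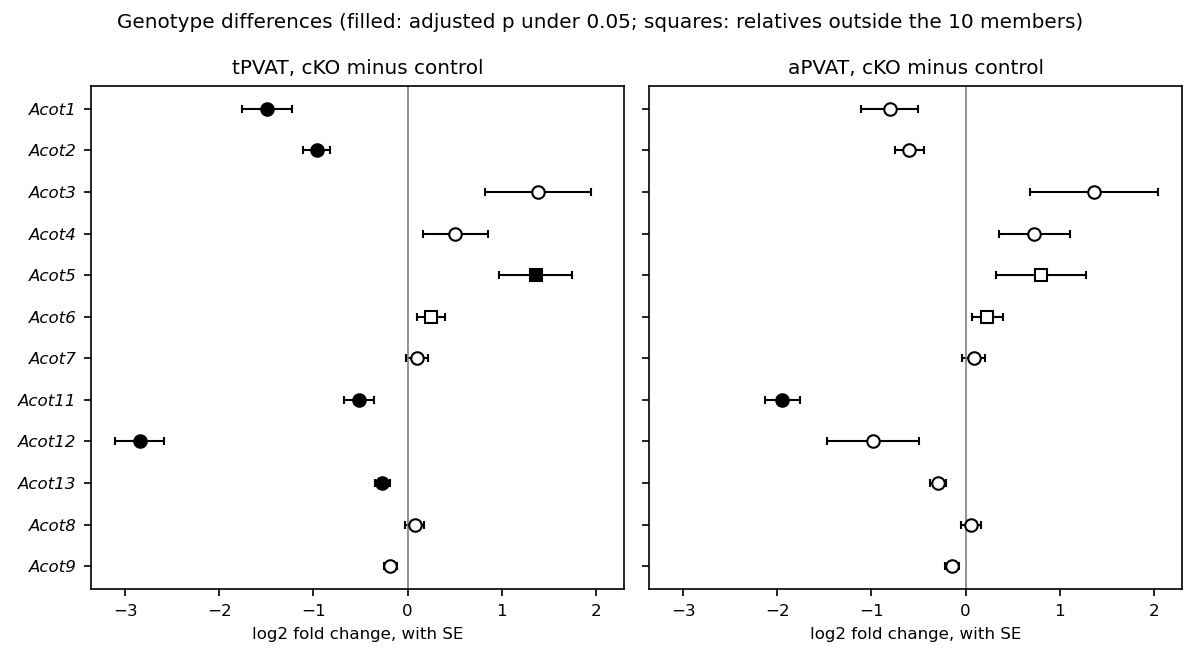
Log2 fold changes of cKO against control with their SE in tPVAT and aPVAT; filled symbols passed the test at an adjusted p under 0.05, circles are the 10 members, and squares are the relatives Acot5 and Acot6. Acot11 is filled in both depots, further from 0 in aPVAT (−1.95) than in tPVAT (−0.52).

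Whether the genotype difference itself differed between depots was tested with an interaction term, the aPVAT difference minus the tPVAT difference, which 0.784% of all genes passed. Acot11 was the 1 member that passed (−1.43, SE 0.239, adjusted p = 0.00645): it was 3.86-fold lower in aPVAT cKO and 1.43-fold lower in tPVAT cKO than in the controls of the same depot. The interaction call held in all 24 alternatives run (adjusted p up to 0.0425). For Acot1 (0.69, SE 0.402, adjusted p = 0.708) and Acot2 (0.37, SE 0.209, adjusted p = 0.689) no difference between depots was detected, and the same held for Acot12 (1.86, SE 0.634, adjusted p = 0.358), whose aPVAT reads were few.

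Summing the reads of Acot1 to Acot6 removed the split among these relatives, but not an effect of reads dropped or counted for several genes. The sum was lower in tPVAT cKO, at 102 ± 14.4 CPM in controls and 59.0 ± 17.3 CPM in cKO (−0.79, SE 0.175, adjusted p = 0.00717). In aPVAT it was 29.9 ± 5.61 and 24.1 ± 2.82 CPM (−0.31, SE 0.191, adjusted p = 0.532). Within the cluster the genes did not keep their proportions. Reads of Acot1 and Acot2 together were 22.2, 13.2, 10.2 and 15.5 times those of Acot3, Acot4 and Acot5 together in tPVAT controls, and 5.38, 5.45, 3.62 and 3.37 times in tPVAT cKO. In aPVAT the same ratio was 11.9, 8.18, 7.28 and 7.95 in controls and 3.88, 3.23 and 2.64 in cKO. The ratio was lower in every cKO library than in every control library of its depot. It was formed after the values of the genes had been seen and is a description without a test; it also depends on how reads were split among these genes.

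**Figure D4:**
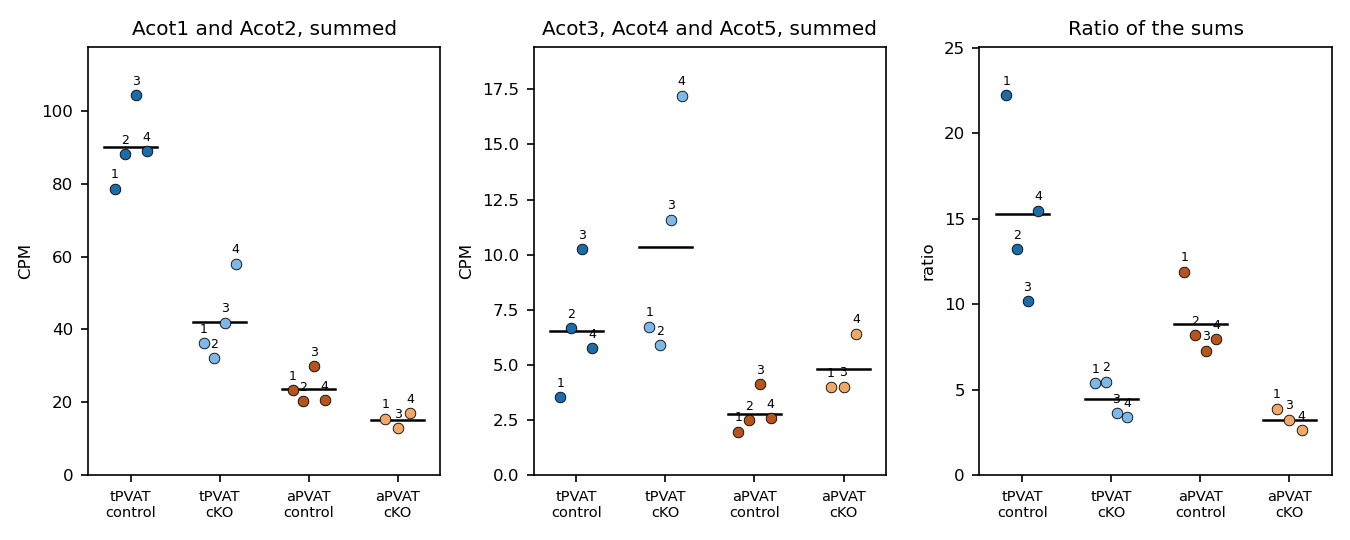
Summed CPM of Acot1 and Acot2, summed CPM of Acot3, Acot4 and Acot5, and the ratio of these sums in every library, with the library number beside each point and a bar at the group mean. The ratio is 10.2 to 22.2 in tPVAT controls against 3.37 to 5.45 in tPVAT cKO, and 7.28 to 11.9 in aPVAT controls against 2.64 to 3.88 in aPVAT cKO.

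Depots were compared within each genotype. In controls 8 members were lower in aPVAT than in tPVAT, 1 was higher (Acot7) and Acot3 did not pass; among all genes tested, 56.6% passed, 27.3% as lower. In cKO 9 were lower and 1 was higher, again Acot7, with 52.6% of all genes passing, 25.4% as lower. Without Acot12, whose reads in tPVAT alone let it pass the count filter, 7 of 9 were lower in controls and 8 of 9 in cKO. The median log2 fold change of these 9 was −1.40 in controls and −1.42 in cKO, against 0.04 for all genes in each. These comparisons share the libraries of the genotype comparisons above.

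Apart from Acot12, Acot11 had the largest depot difference of the members, 11.8-fold lower in aPVAT controls (728 against 61.9 CPM; log2 fold change −3.56, SE 0.176, adjusted p = 2.63e-10) and still further apart in cKO (508 against 16.0 CPM, −4.99). Acot12 had log2 fold changes of −4.69 in controls and −2.83 in cKO, with 3 to 8 and 1 to 3 reads in the aPVAT libraries; having passed the filter through tPVAT, it had to differ. Acot1 (−2.19 in controls, −1.503 in cKO), Acot2 (−1.84 and −1.47) and Acot13 (−1.40 and −1.42) followed. Acot8 (−0.73 and −0.74) and Acot9 (−0.55 and −0.51) differed less. Acot4 was lower in controls (−1.19, adjusted p = 0.00947) and in cKO (−0.96, adjusted p = 0.0421), and Acot3 in cKO (−1.504, adjusted p = 0.0463) but not by the test in controls (−1.48, adjusted p = 0.0636). The cKO calls of Acot3 and Acot4 were lost in 10 of 25 alternatives each. Among these were the fits without tPVAT cKO 4, alone or together with tPVAT control 3 (−0.99 and −0.62 in each). In controls Acot3 was called lower in 7 of 25 alternatives, among them DESeq2 (−1.52, adjusted p = 0.0327).

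Acot7 was the exception. It stood at 24.2, 24.1, 22.5 and 26.7 CPM in tPVAT controls and at 33.0, 32.3, 42.3 and 38.9 CPM in aPVAT controls. All aPVAT control libraries lay above all tPVAT control libraries, and Acot7 was higher in aPVAT (0.59, SE 0.117, adjusted p = 4.84e-04; 0.57 in cKO). Acot7 is known as abundant in neurons. The summed level of 10 markers of sympathetic neurons was 420 to 671 CPM in tPVAT controls and 795 to 1206 CPM in aPVAT controls, none of them at 0. Other lists differed too. Summed macrophage markers had means of 324 CPM in tPVAT controls and 620 CPM in aPVAT controls, and endothelial markers of 756 and 938 CPM. Thermogenic adipocyte markers went the other way, with means of 8642 and 886 CPM. The part of any of these cells in the Acot7 difference was not tested.

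The depot results depend on the scaling of the libraries. The mean TMM factors were 0.777 in tPVAT controls and 0.819 in tPVAT cKO against 1.30 in aPVAT controls and 1.29 in aPVAT cKO. With library totals only, the median of all genes moved to 0.78 in controls and 0.69 in cKO, and 91.2% and 90.6% of the calls were higher in aPVAT, against 51.7% with TMM in each. Under that scaling Acot11 (−2.82 and −4.32), Acot1 (−1.44 and −0.84), Acot2 (−1.10 and −0.82) and Acot13 (−0.65 and −0.77) stayed lower in aPVAT. Acot12 did too (−3.96 and −2.18), but having passed the count filter through tPVAT alone, it had to. Acot7 was further apart, at 1.33 in controls and 1.22 in cKO. Acot4 no longer passed (−0.44 and −0.30, adjusted p = 0.234 and 0.446), nor did Acot3 in cKO (−0.84, adjusted p = 0.197). Acot9 was called higher in aPVAT controls (0.19, adjusted p = 0.0217), the opposite of its call with TMM, and was 0.14 in cKO (adjusted p = 0.112). Acot8 was 0.02 in controls and −0.09 in cKO, so the direction of both genes depends on the scaling. Both lay below the median of all genes under either scaling.

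**Figure D5:**
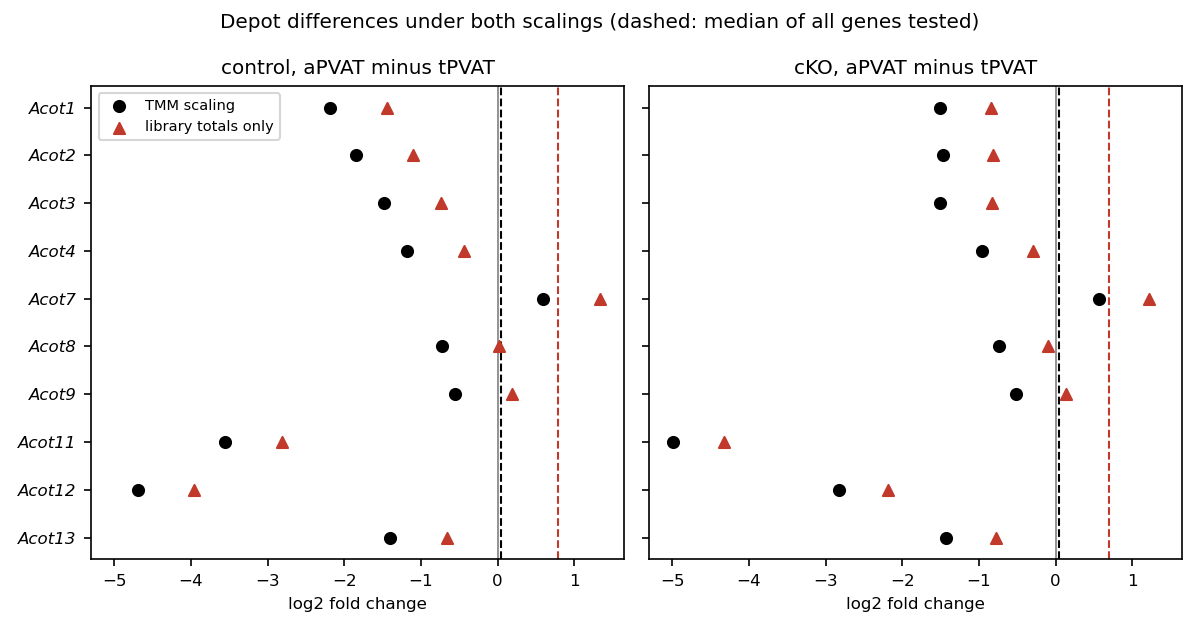
Log2 fold change of aPVAT against tPVAT for each member in controls and in cKO, with TMM scaling (circles) and with library totals only (triangles); dashed lines mark the median of all genes tested under each scaling. Acot8 and Acot9 move to 0.02 and 0.19 in controls without TMM factors, while the all-gene median moves from 0.04 to 0.78.

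Other genes of acyl-CoA handling were read from fixed lists. Of 17 acyl-CoA synthetases, which make the substrates of the thioesterases, 5 were higher, 2 lower and 10 not called in tPVAT cKO, and 2 were higher, 3 lower and 12 not called in aPVAT cKO. Over all genes tested 12.0% passed in tPVAT and 1.53% in aPVAT. The synthetases' median log2 fold changes were 0.20 in tPVAT and 0.12 in aPVAT, against −0.01 for all genes in each. Slc27a1, a fatty acid transport protein with synthetase activity, rose in both depots (1.02 and 0.59), as did the acetyl-CoA synthetase Acss2 (0.70 and 0.81), while the mitochondrial Acss1 fell in both (−0.86 and −0.99). Acsm5 rose in tPVAT cKO (0.90), and Slc27a2 (−3.13) and Acsl5 (−0.63) fell in aPVAT cKO. Of 8 carnitine acyltransferases and carriers, which pass acyl groups into mitochondria, the carnitine-acylcarnitine carrier Slc25a20 fell in tPVAT (−0.48) and Cpt1b, the muscle and brown fat form of the entry enzyme, fell in aPVAT (−3.38, from 2.72 to 0.254 CPM); 7 were not called in each depot, and the medians were −0.10 and −0.06. Of 10 tested genes of CoA synthesis and CoA hydrolysis, Pank1, a pantothenate kinase, fell in both depots (−0.55 and −0.87), and Nudt7, a peroxisomal CoA hydrolase, rose in aPVAT (0.32), with medians of 0.03 and 0.06.

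Of 17 tested peroxisomal genes of acyl-CoA handling, 4 were higher, 4 lower and 9 not called in tPVAT cKO (median −0.07; 0.03 in aPVAT cKO). For this and the next lists, the share of all genes that passed was 12.0% in tPVAT and 1.53% in aPVAT. Acaa1b, a peroxisomal thiolase, rose from 50.5 to 197 CPM (1.96), and the transporter Abcd2 (1.27), the thiolase Scp2 (0.52) and the oxidase Acox2 (0.80) rose too. Phyh, which starts alpha-oxidation, fell in tPVAT (−0.53). In aPVAT cKO Acaa1b (1.59) rose, Phyh (−0.49) fell and 15 did not pass. Of 11 tested genes listed as thioesterases without an Acot name, Abhd17c, which removes palmitate from proteins, fell in tPVAT cKO (−0.51). Mcat, a mitochondrial malonyl transferase that stood on this list without being a thioesterase, fell too (−0.35), and none of the 11 passed in aPVAT (medians −0.07 and 0.04). Of 8 acyl-CoA and fatty acid binding proteins, Fabp5 (1.32), Acbd4 (0.69) and Fabp4 (0.37) rose in tPVAT cKO, and in aPVAT cKO Fabp5 rose (0.67) and Fabp3 fell (−3.28), with medians of 0.37 and 0.09.

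Ppara, a nuclear receptor activated by fatty acids, is known to induce several Acot genes. Of 16 tested genes of a list of its regulators and targets, 8 were lower and 8 not called in tPVAT cKO, and 6 were lower and 10 not called in aPVAT cKO, with median log2 fold changes of −0.34 and −0.45. Of all genes tested, 6.61% were lower in tPVAT cKO and 0.789% in aPVAT cKO. Ppara itself stood at 94.3, 112, 94.4 and 103 CPM in tPVAT controls and at 73.7, 74.4, 77.1 and 78.5 CPM in tPVAT cKO, with no overlap, and fell (−0.41, adjusted p = 0.0256). In aPVAT it stood at 19.1, 20.3, 28.7 and 19.9 CPM in controls and at 10.8, 12.7 and 13.8 CPM in cKO, again with no overlap, and fell (−0.83, adjusted p = 0.00215). The kinase Pdk4, which restrains glucose oxidation, fell from 1359 to 945 CPM in tPVAT (−0.52) and from 188 to 49.9 CPM in aPVAT (−1.91). Vnn1, which recycles pantothenate, fell in both depots (−0.60 and −0.67), as did the oxidation enzyme Acadm (−0.36 and −0.45). The lipid droplet protein Plin5 fell in aPVAT (−0.73).

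The RefSeq promoter table (GRCm38.p6) held an entry for 9 of the 10 members, with no entry for Acot13. Each window of 250 bases before to 50 after the start was searched on both strands for the known binding site of Ppara with its partner Rxr, a repeat of AGGTCA spaced by 1 base (AGGTCANAGGTCA). It occurred in 0.0396% of 32851 promoter windows and in no window of a member. The hexamer AGGTCA alone, which is contained in the repeat, occurred in 16.3% of all windows and in those of Acot3, Acot4 and Acot12 among the members and of the relative Acot5. A palindrome of TCCC and GGGA spaced by 2 bases occurred in 0.904% of all windows and in no member's window. The bases just upstream of 4 members are printed because Acot1, Acot2 and Acot12 fell in tPVAT cKO while Acot4, from the same cluster as the former pair, did not pass. Capitals mark the hexamer, read here on the other strand as its reverse complement.
Acot1, chr12:84009382-84009489 (+): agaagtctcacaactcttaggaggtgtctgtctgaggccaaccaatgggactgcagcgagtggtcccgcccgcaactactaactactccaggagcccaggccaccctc
Acot2, chr12:83987741-83987860 (+): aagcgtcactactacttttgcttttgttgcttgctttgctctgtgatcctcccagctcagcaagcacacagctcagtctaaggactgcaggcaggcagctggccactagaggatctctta
Acot4, chr12:84038259-84038378 (+): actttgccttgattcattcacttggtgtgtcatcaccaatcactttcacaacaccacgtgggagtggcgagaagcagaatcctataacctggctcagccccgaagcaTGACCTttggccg
Acot12, chr13:91741401-91741511 (+): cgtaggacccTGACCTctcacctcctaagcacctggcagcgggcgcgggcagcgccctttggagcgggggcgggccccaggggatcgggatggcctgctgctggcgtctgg
In the windows upstream of the start, no pair among Acot1, Acot2, Acot3, Acot4 and Acot5 shared a run longer than 9 bases, against runs of 67 to 273 bases in their coding sequences. A missing match says only that these letters are not in these windows.

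Other tissues that the dissection could include were checked by marker genes. All 8 general adipocyte markers were found in every group. Of 7 kidney markers, the summed level was at most 17.1 CPM in any library, and Umod, which defines the thick ascending limb, was at 0 in every library. Heart and skeletal muscle markers summed to 192 to 267 CPM in tPVAT controls and 79.8 to 193 CPM in tPVAT cKO, with 1 of 10 called lower, and none at 0. They summed to 15.1 to 27.0 CPM in aPVAT. The endothelial markers summed to 701 to 793 CPM in tPVAT controls and 619 to 641 CPM in tPVAT cKO, with 2 of 4 called lower and none at 0. The part of muscle and endothelial RNA in the lower Acot1, Acot2, Acot12 and Acot13 of tPVAT cKO was not tested. Acot12 is known to be high in liver. The 5 liver markers had summed means of 560 CPM in tPVAT controls and 1521 CPM in tPVAT cKO, with 2 of 5 called higher and none at 0 in every library of a group. Nearly all of the sum was Cyp2e1 (556 and 1515 CPM), which adipose tissue also expresses. Serpina1c had means of 0.828 and 2.29 CPM, Alb of 2.66 and 2.72, Apoa2 of 0.848 and 0.771, and Ttr of 0.329 and 0.156. The part of liver RNA in the Acot12 difference was not tested.

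The genes with the pattern most like Acot1 over the 15 libraries, by Pearson's r of log2 CPM among 9074 genes, were Acot2 (r = 0.973), the fucosyltransferase Fut8 (0.965) and the adaptor Shb (0.964). For Acot2 they were Cmtm4 (0.990), the mono-ADP-ribosylhydrolase Macrod1 (0.988) and the ubiquitin ligase Rnf152 (0.988). The 15 points share depot, genotype and scaling, and Acot1 and Acot2 may share reads, so these values are descriptions. Rnf152 had means of 55.9, 22.1, 9.81 and 5.81 CPM in tPVAT controls, tPVAT cKO, aPVAT controls and aPVAT cKO, beside 64.4, 33.0, 17.9 and 11.9 CPM for Acot2.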

How the data were processed

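RNA from 15 samples was sequenced as stranded poly(A) libraries, per the labels' protocols. The authors deposited 1 table of read counts per Ensembl gene, whole numbers without normalization. The submitters' processing notes name the build mm10 and the tools Salmon, Subread and DESeq2 1.42.1, with no role; the counting tool, annotation, strand setting and treatment of reads that match several genes remain not given in the sources used here. Without a stated strand setting, reads of Acot8, Acot11, Acot12, Acot3 and Acot4 cannot be told apart from those of genes overlapping on the other strand. The aPVAT cKO sample number 2 was not analysed here.

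Symbols, locations and exon lengths came from GENCODE M21 on GRCm38, the assembly behind mm10, which held 42462 of the 43352 identifiers. The counts were fitted with edgeR 4.0.16 under R 4.3.3, using filterByExpr with a minimum count of 10 (19645 genes), TMM scaling, and 1 quasi-likelihood model of 4 group means over all 15 libraries. F tests gave 5 contrasts, with p-values adjusted by Benjamini and Hochberg over all genes and a threshold of 0.05. The SE is the log2 fold change divided by the square root of F. On simulated counts with 200 of 19645 genes changed, in the tPVAT comparison, 91.0% of 2-fold and 98.0% of 4-fold changes were recovered. Apart from these changes, each simulated gene had the same mean in all 4 groups. In the data 12.0% of genes passed in tPVAT and depots differed widely, so the rates may not carry over. The changed genes were drawn from those averaging above 1 CPM, so these rates do not cover Acot3, Acot5 and Acot12, which averaged less. No library looked like a copy of another.

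The members and gene lists were chosen with earlier results of these data known. The text names all members, the relatives Acot5, Acot6 and Acot10, Prdm16, up to 4 genes per list and genotype contrast with the smallest p (all of a count of 5 or fewer), and for Acot1 and Acot2 the 3 genes with the most similar pattern (mean log2 CPM of at least 3, prior count 2). A gene of the lists that this rule names is not reported here. Coding sequences were aligned with Biopython 1.88. Alternatives covered scaling, test (DESeq2 1.42.0), filter, samples in the fit, a replicate block and single libraries left out.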

Additional observations from a re-analysis of the deposited data

Results flagged for a closer look

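Among the 30 groups of 4 libraries tested for a library far from the others, of which about 1 in 20 would be expected to stand out by chance, 1 did: Acot1 in aPVAT control 3 stood at 8.38 CPM, with the next highest aPVAT control at 4.92 CPM. The same library was also the highest aPVAT control for Acot2, Acot3, Acot4, Acot7, Acot12 and Acot13, and for the relative Acot6.

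The genotype difference of Acot11 differed between the depots, with an interaction log2 fold change of −1.43 (SE 0.239, adjusted p = 0.00645 by edgeR), lower in aPVAT. All 3 aPVAT cKO libraries lay below all 4 aPVAT controls, and all 4 tPVAT cKO libraries lay below all 4 tPVAT controls.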

How the results depend on the processing

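Of 1171 values of single genes recomputed under an alternative, 1094 kept their direction and their side of the threshold. Among the members, 3 passed in tPVAT with library totals only, where 11.4% of all genes passed. Without tPVAT control 3 and tPVAT cKO 4 together 3 passed (8.2% of all genes). The analysis reported had 5 (12.0%), and fits with 1 library left out had 3 to 5 (8.7% to 16.7%). In aPVAT 2 passed with DESeq2 (2.0% of all genes), without the count filter (1.0%) and without tPVAT control 3 and tPVAT cKO 4 (1.3%). There 3 passed without aPVAT control 2 and aPVAT cKO 4 (1.8%) and with library totals only (1.6%). With 1 library left out, 1 to 2 passed (0.8% to 2.0%), against 1 in the analysis reported (1.53%). With library totals only, and with Acot12 counted, 6 members passed in the cKO depot comparison, against 10. In the control one 7 passed (2 higher, 5 lower), against 9. Of all genes, 76.4% and 81.6% passed. The cause was not tested. Over all genes, aPVAT gave 606 calls with DESeq2 and 92 with only the 2 groups compared, and 161 to 398 with 1 library left out (161 without aPVAT cKO 1), against 301; the interaction gave 350 with DESeq2, against 154; tPVAT gave 3726 with only the 2 groups compared, against 2367. With library totals only, 66.9% of tPVAT calls were higher in cKO, against 45.2%, and 36.6% of aPVAT calls, against 48.5%. Differences near 0 changed sign: Acot8 in aPVAT was −0.056 without aPVAT control 2 and aPVAT cKO 4 (−0.043 to 0.20 with 1 library left out), and Acot7 in tPVAT was −0.0027 to 0.20. Calls also reversed: with library totals only the depot values, called lower with TMM, were 0.0186 for Acot8 in controls (not called), and for Acot9 0.19 in controls (called higher, adjusted p = 0.0217) and 0.14 in cKO (not called). It is not stated whether tPVAT and aPVAT samples of the same number came from the same mouse. The depot and interaction tests treated them as independent. Deviations of libraries of the same number from their group means correlated weakly, at −0.03 to 0.16 between depots and −0.22 to 0.17 between genotypes. With genotype and number taken as an animal block, 9 members were lower and 1 higher in aPVAT in each genotype, and 1 passed the interaction. The 9 include Acot12, which passed the count filter through tPVAT alone and so had to be lower. Of all genes, 54.8% passed in the control depot comparison, 49.6% in the cKO one and 0.8% in the interaction. With the number as a replicate block, 2 members passed in aPVAT, where Acot2 was added (−0.65, adjusted p = 0.0475). In the same fit Acot13 was lost in tPVAT (−0.27, adjusted p = 0.0515). Of all genes, 1.6% passed in aPVAT and 12.2% in tPVAT under this block. Depth limits Acot12 in aPVAT, with 1 to 8 reads per library, and Acot3, with 4 to 80.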
